A study of Caenorhabditis elegans with 2 samples.

Results

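Peaks of a GFP-tagged DSC-1 protein were examined at 10 Caenorhabditis elegans genes that hold or release the arrest of blast cells in the first larval stage (L1). The genes were taken by name, not by any measured value, and are 10 of 19973 annotated protein-coding genes. They are the cyclin genes cye-1 and cyd-1, the kinase genes cdk-2 and cdk-4, the inhibitor genes cki-1 and cki-2, the Rb gene lin-35, the E2F and DP genes efl-1 and dpl-1, and fzr-1, which encodes an activator of the anaphase-promoting complex (APC/C). All symbols were found in the annotation. Each gene was described with the 5 kb upstream of its outermost annotated start.

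The samples form 1 group of 2 biological replicates, and no conditions could be compared. The animals were whole L1 hermaphrodites of strain OP522 (unc-119(tm4063) III; wgIs522), in which an integrated transgene supplies DSC-1 with GFP and FLAG at its carboxy terminus, and chromatin was precipitated with an antibody to GFP, per the labels. They were collected 6 hours after synchronization by starvation of bleached animals, and the labels do not say whether food was given in that time. Both replicates share these alleles and this stage. A whole larva mixes all tissues, so the cells behind a peak cannot be told apart. DSC-1, a homeodomain protein of the paired-like class, is known for its role in the defecation motor program. The control named in the labels was not used here, and how much of each peak comes from binding by DSC-1 was not tested.

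As background, larvae that hatch without food keep their postembryonic blast cells in G1. Cyclin D with CDK-4 and cyclin E with CDK-2 drive cells into S phase, and the CKI proteins, of the p21/p27 family, inhibit these kinases. LIN-35, the only Rb-type protein of the worm, acts with the EFL-1 and DPL-1 proteins to repress genes of the cell cycle, and the cyclin D kinase counteracts it. FZR-1, the worm's Cdh1, promotes degradation of cyclins through the APC/C and keeps cells in G1 together with LIN-35.

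IDR peaks lay at 6 of the 10 genes, namely lin-35, efl-1, cye-1, cdk-2, cdk-4 and fzr-1. Here an IDR peak is a peak of the pooled replicates in the list that the authors thresholded on the irreproducible discovery rate. That rate measures how alike peaks rank between replicates. The list equals the 6283 strongest pooled peaks, and a listed peak need not overlap a peak in each replicate. The position of a peak is that of its summit. Over all protein-coding genes 32.9% had such a summit in the same kind of window. No IDR summit was found at cki-1, cki-2, cyd-1 or dpl-1. A summit in the promoter window, which reaches 1000 bp before the start and 200 bp past it, was present at lin-35, efl-1, cye-1 and cdk-4, which is 4 of 10 genes, against 14.7% of all protein-coding genes. With the 6283 strongest peaks of replicate 2 alone, efl-1 and lin-35 were left, which is 2 of 10, against 14.3% of all protein-coding genes. With the stronger 50% of IDR peaks, the same genes were left, against 8.6% of all. The median distance from the start to the nearest IDR summit was 1632 bp for the 10 genes and 7954 bp for all protein-coding genes. These shares and medians were given no test, because the genes were chosen with earlier results of these data known.

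Window length and chromosome differed between the 10 genes and the rest. The median window was 9047 bp long for the 10 genes and 7027 bp for all protein-coding genes, and the joined windows held 0.788 IDR summits per 10 kb for the 10 genes and 0.630 for all. By chromosome, 3 of 3 genes on I, 1 of 5 on II, 1 of 1 on V and 1 of 1 on X had an IDR summit, where the shares of all protein-coding genes were 39.9% on I, 28.7% on II, 24.3% on V and 39.4% on X. The part of window length and chromosome in the count was not tested. The 4 genes without an IDR summit all lie on II.

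**Figure D1:**
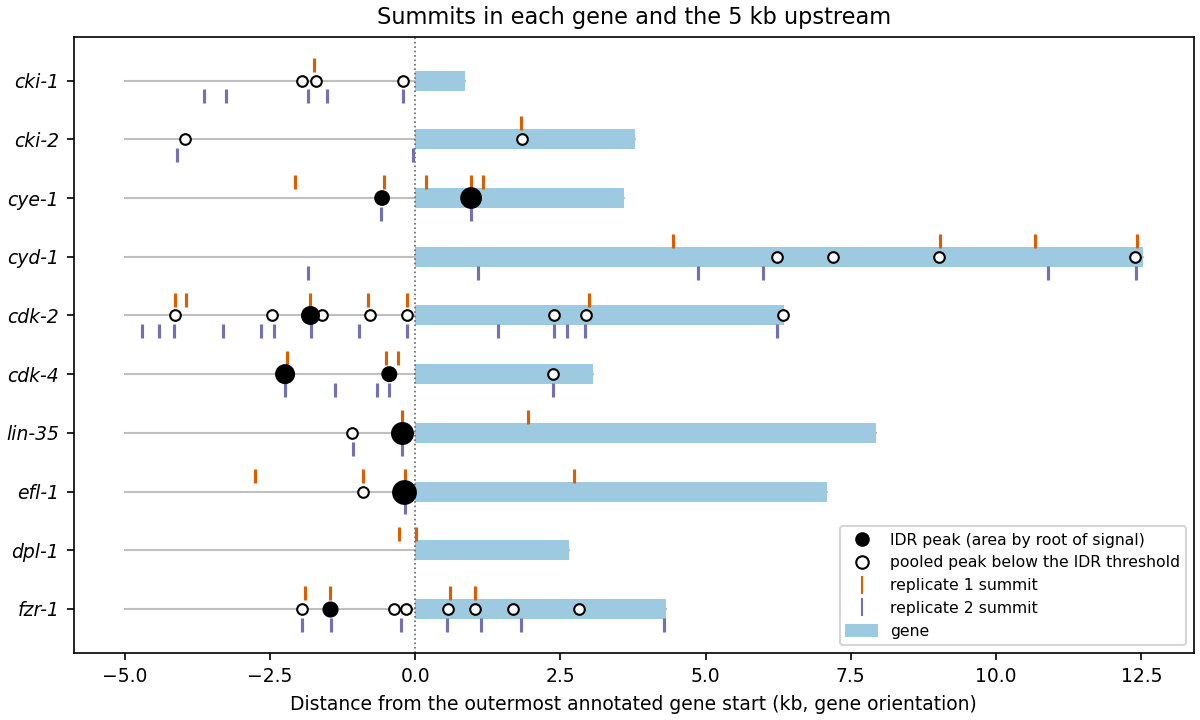
Summits in each of the 10 genes (rows) and the 5 kb upstream, by distance from the gene start in kb along the gene's orientation. Filled circles are IDR peaks, open circles are pooled peaks below the threshold, coloured ticks are summits of replicate 1 (above the line) and replicate 2 (below it), and bars are genes; filled circles stand at 6 genes, and the row of dpl-1 holds ticks of replicate 1 alone.

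The Rb and E2F genes carried the strongest peaks of the set. At efl-1, which encodes an E2F transcription factor (chrV:16958590-16965675, minus strand, ce11), the IDR peak had a signal of 697.6 and rank 227 of 6283, where rank 1 is the peak with the highest signal in its list. Its summit was 186 bp upstream of the start, outside annotated genes. The overlapping peak had rank 130 and a signal of 349.5 in replicate 1, and rank 328 and a signal of 358.1 in replicate 2. Both replicates therefore placed the site among their strongest peaks, with summits 10 and 6 bp from that of the IDR peak. The scale of the signal is not stated, and signals are not compared between lists. The next gene start, that of the divergent fbxa-90, lies 953 bp from this summit on the other side, so the summit is in both promoter windows.

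The sequence at the efl-1 summit is shown because its peak is the strongest of the set and holds a word of the E2F type. It covers 50 bases to each side of the summit (chrV:16965811-16965911, minus strand, from the RefSeq copy of the same assembly) and runs 5′ to 3′ towards the gene. Capitals mark matches to any of 8 words that were searched on both strands, here TTTCCCGC near the upstream end and TAATCC near the downstream end.
efl-1 summit: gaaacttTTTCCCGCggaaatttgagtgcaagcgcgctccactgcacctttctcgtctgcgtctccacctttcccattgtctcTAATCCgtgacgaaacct

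Among all 6283 IDR summits, 0.748% had TTTCCCGC in a window of this width and 10.6% had TAATCC. Of the 8 summits at the cell cycle entry genes, efl-1 alone had TTTCCCGC, and 2 had TAATCC. In promoters of 300 bp, from 250 bp before to 50 bp after the start, TTTCCCGC was found at cyd-1, cdk-2 and efl-1, or 3 of 10 genes, and in 1.57% of all promoters. The efl-1 promoter contains the whole summit window, so it holds the copy counted there. At cyd-1 and cdk-2 no IDR summit lay in the promoter window. The other words of the E2F type, TTTCGCGC and TTTGGCGC, were in none of these 8 windows and none of the 10 promoters. They occur in 1.03% and 0.318% of the windows at all IDR summits. A match of letters does not show a binding site.

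At lin-35, the Rb gene (WBGene00003020, chromosome I, 5807709 to 5815637, plus strand), a single IDR peak of rank 517 and signal 499.4 had its summit 225 bp upstream of the start. It ranked 500 in replicate 1 and 546 in replicate 2, the smallest spread of the 8 peaks, with summits 1 and 4 bp away. The summit lies in the gap between divergent genes and is 193 bp from the start of vps-51, a gene of vesicle tethering, so the peak falls in both promoter windows. A weaker pooled peak of rank 15905 lay 1083 bp upstream, within a coding exon of vps-51.

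dpl-1, which encodes the DP partner of EFL-1 (chromosome II, 9169910 to 9172565, plus strand), differed from its partner gene. The IDR and pooled lists held no summit in its window. Replicate 1 held 2 weak summits there, of rank 9613 (276 bp upstream) and 19914 (19 bp downstream), and replicate 2 held none. The nearest IDR summit was 39391 bp upstream of the start, and 10.9% of protein-coding genes were farther from one.

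Of the genes for cyclin E and its kinase, cye-1 had the strongest peak and also the weakest, with that of cdk-2 between them. cye-1 (chromosome I, 6780799 to 6784397, plus strand) carried 2 IDR peaks. The stronger, of rank 844 and signal 391.1, had its summit in an intron 964 bp downstream of the start, and it ranked 792 in replicate 1 and 958 in replicate 2. This summit lay 40 bp from the start of a tRNA gene within the intron, C37A2.t1, which RefSeq annotates as a cysteine tRNA (6781803 to 6781874, plus strand). An IDR summit within 100 bp was present at 200 of 612 tRNA genes, or 32.7%. No share within 100 bp was counted for other genes, and the shares of protein-coding genes given above use far longer windows. The part of the tRNA gene in the cye-1 peak was not tested. The other 7 summits were at least 1572 bp from the nearest non-coding gene.

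The weaker cye-1 peak, of rank 5523 and signal 91.2, lay 568 bp upstream of the start. It ranked 3512 in replicate 1 and 7764 in replicate 2, the widest gap in rank number of the 8 peaks, so replicate 2 alone would have left it below the number of IDR peaks. Its summit is 80 bp upstream of pqn-21, the divergent neighbour, and lies in the promoter windows of both genes. The promoter call of cye-1 rests on this peak.

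cdk-2 (chromosome I, 3410013 to 3416368, plus strand), which encodes the partner of cyclin E, had an IDR peak of rank 2247 and signal 214.5, with its summit 1804 bp upstream. The ranks were 2020 in replicate 1 and 2533 in replicate 2. The summit lies outside genes and is 1020 bp upstream of the start of W05F2.4. Of 9 pooled summits at cdk-2, 8 were below the threshold. One of these was 147 bp upstream of the start, with pooled rank 8450, and it ranked 15745 in replicate 1 and 7599 in replicate 2. Another, 4130 bp upstream in an intron of W05F2.4, had pooled rank 6480 and so just missed the list, with rank 4364 in replicate 1 and 13871 in replicate 2.

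The genes of cyclin D and its kinase differed in that cdk-4 had IDR peaks and cyd-1 had none. cdk-4 (chrX:13515856-13518911, minus strand) carried 2 IDR peaks. The stronger, of rank 1618 and signal 270.6, lay 2238 bp upstream of the start, in an intron of the divergent neighbour F18H3.1, with rank 2489 in replicate 1 and 1154 in replicate 2. The weaker, of rank 5202 and signal 98.0, was 444 bp upstream of cdk-4 and 308 bp upstream of F18H3.1, in the promoter windows of both. It ranked 5230 in replicate 1 and 6423 in replicate 2, and the replicate 1 summit was 150 bp away, where 2 peaks of replicate 1 overlapped it.

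Both sites upstream of cdk-4 are shown to compare a site in an intron of F18H3.1 with an intergenic site. They cover 50 bases to each side of the summit on the minus strand of ce11, with words in capitals as before. The first is chrX:13521099-13521199 and the second chrX:13519305-13519405.
cdk-4 summit, 2238 bp upstream: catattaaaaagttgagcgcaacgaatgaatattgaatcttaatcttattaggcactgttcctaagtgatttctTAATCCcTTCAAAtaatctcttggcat
cdk-4 summit, 444 bp upstream: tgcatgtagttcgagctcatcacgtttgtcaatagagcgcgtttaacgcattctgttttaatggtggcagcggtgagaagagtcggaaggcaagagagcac

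The upstream site held TAATCC, next to TTCAAA, the reverse complement of TTTGAA, which resembles the CHR element of DREAM target genes. TTTGAA was in 15.8% of windows at all IDR summits. The site near the start held none of the words. The GC content was 31.7% at the upstream site and 48.5% at the site near the start, around a median of 42.6% over all IDR summits.

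cyd-1, the cyclin D gene (chromosome II, 12980591 to 12993117, plus strand), has the longest window of the 10 genes, 17527 bp, and no IDR summit. Its 4 pooled summits had ranks from 22104 to 29283, and all were inside the gene. The strongest of its 4 summits in replicate 1 had rank 12178, and the strongest of its 6 in replicate 2 had rank 19774. The gene has 2 annotated transcripts, and no IDR summit was found in the promoter window of either start.

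The inhibitors of the cyclin kinases had only peaks below the threshold. cki-1 (chromosome II, 7811240 to 7812105, plus strand), the main inhibitor in blast cells at the L1 stage, had 3 pooled summits. The strongest, of rank 7212 and signal 66.9, lay 1940 bp upstream, in an exon of the non-coding gene T05A6.15. The weakest IDR peak had a signal of 78.4. The peaks that overlapped the pooled peak of rank 7212 ranked 15399 in replicate 1 and 8362 in replicate 2. Both also overlapped the next pooled peak, of rank 10895 and 1702 bp upstream. The replicate 1 summit, 1734 bp upstream, was nearer to that one. The pooled summit nearest the cki-1 start, 205 bp upstream, had rank 19739 and overlapped a peak in replicate 2 but none in replicate 1.

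cki-2 (chromosome II, 7816499 to 7820281, plus strand) is the downstream neighbour of cki-1, and its window reaches into that gene. Its strongest pooled peak, of rank 7477 and signal 64.2, was in an intron 1846 bp downstream of the start. This peak was at rank 5577 in replicate 1 and overlapped no peak in the replicate 2 list. Without replicate 2, cki-2 would therefore count among the genes with a peak, which makes 7 of 10, against 33.3% of all protein-coding genes. The nearest IDR summit to both inhibitor genes was downstream of them, 16779 bp from the start of cki-1 and 11520 bp from that of cki-2, and 29.0% and 39.7% of all protein-coding genes were farther from one.

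fzr-1 (chrII:9640156-9644466, minus strand), the Cdh1 gene, had an IDR peak of rank 5001 and signal 102.3, the weakest among the strongest peaks of the 6 genes. Its summit was 1460 bp upstream, and 1052 bp upstream of sqv-8, a divergent gene of glycosaminoglycan synthesis. It ranked 4343 in replicate 1 and 5242 in replicate 2, with summits 1 and 14 bp away. A second pooled peak, 1953 bp upstream, had rank 6554, just outside the IDR list. It ranked 11296 in replicate 1 and 5141 in replicate 2, so in replicate 2 it was the stronger of the pair.

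The fzr-1 site is shown as the one site on II, with 50 bases to each side of the summit (chrII:9645876-9645976, minus strand, ce11). It held none of the words and had a GC content of 29.7%, the lowest of the 4 sites printed.
fzr-1 summit: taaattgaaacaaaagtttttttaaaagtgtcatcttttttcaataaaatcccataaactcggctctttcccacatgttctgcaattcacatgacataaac

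**Figure D2:**
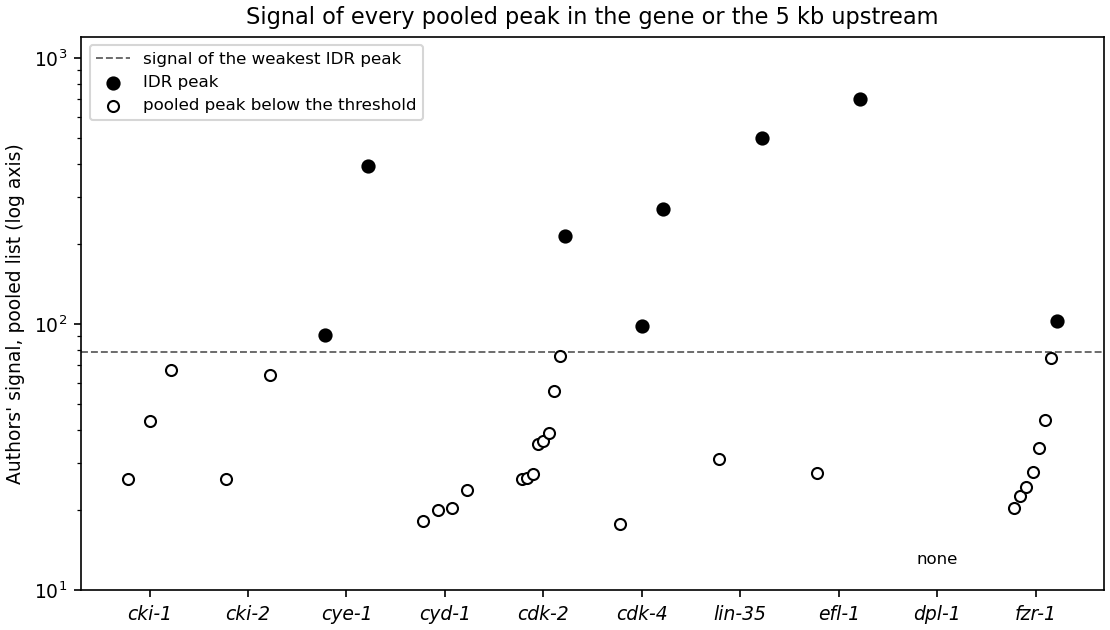
The authors' signal (log axis) of every pooled peak with its summit in each of the 10 genes or the 5 kb upstream. Filled points are IDR peaks, open points are pooled peaks below the threshold, and the dashed line is the signal of the weakest IDR peak, 78.4; the strongest points of cki-1 (66.9) and cki-2 (64.2) lie just under the line, those of cyd-1 lie far under it, and dpl-1 has none.

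Of the 8 IDR summits, 6 were outside annotated genes, 2 were in introns and none was in an exon, where of all 6283 IDR summits 3699 were outside genes, 1587 in introns and 997 in exons. The summit was upstream of the gene start in 7 of the 8, and in 77.3% of all pairs of a protein-coding gene and an IDR summit in its window. Each of the 8 lay in the gene or the 5 kb upstream of at least 2 protein-coding genes, which held for 45.8% of all IDR summits. These shares differ in basis, because the 8 were taken for lying in a gene window and all 6283 include 505 in none. A summit in several windows is also more readily taken. Another protein-coding start was nearer than that of the cell cycle gene for 6 of the 8, against 49.1% of all such pairs. With each summit given to its nearest protein-coding start the count was 2 of 10 genes, cye-1 and efl-1, against 18.5% of all protein-coding genes. Starts of non-coding genes were left out of both counts. The cye-1 summit kept in this way lay 40 bp from the start of a tRNA gene. The homeodomain words TAATTA and TAATTG were in none of the 8 windows, and were in 4.54% and 6.64% of windows at all IDR summits. TAATCC, also searched as a homeodomain word, was in 2 of the 8, at efl-1 and cdk-4, and in 10.6% of all. GAGAGA was in 1 of the 8, at the upstream site of cye-1, and in 20.8% of all.

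Each of the 8 IDR peaks overlapped a peak in both replicate lists, as did 99.7% of all IDR peaks in replicate 1 and 99.5% in replicate 2. The median distance to the IDR summit was 7 bp in replicate 1 and 5 bp in replicate 2, and 13 and 7 bp over all IDR peaks. Between the replicates, the summits of the 8 peaks were 1 to 152 bp apart, with a median of 15.5 bp, and the median over all IDR peaks found in both lists was 20 bp. Within the 6283 strongest peaks of each replicate, 8 of 8 were found in replicate 1 and 6 of 8 in replicate 2, against 90.4% and 92.2% of all IDR peaks. The missing peaks in replicate 2 were those in the promoter windows of cye-1 and cdk-4. The IDR list was built from these replicates, so this overlap is no independent check.

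**Figure D3:**
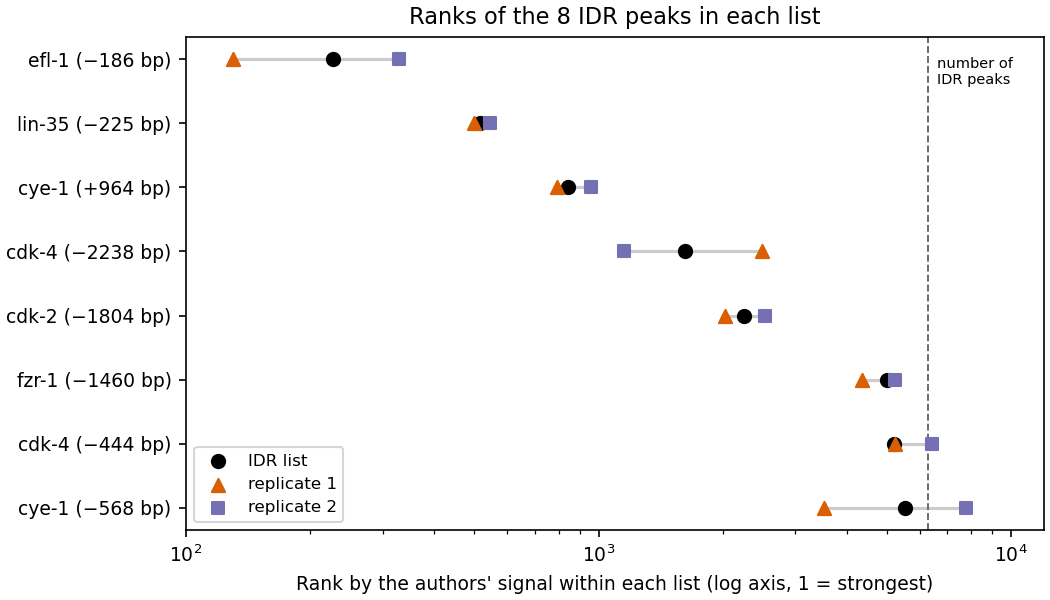
Ranks by the authors' signal (log axis, 1 is the strongest) of the 8 IDR peaks in the IDR list (circles), replicate 1 (triangles) and replicate 2 (squares), with the distance of each summit from the gene start. The dashed line marks the number of IDR peaks, 6283; the efl-1 and lin-35 peaks lie far to its left in each list, and 2 peaks pass it in replicate 2.

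Weaker signals were widespread in the lists that include background. The pooled list held 35 distinct summits in the windows of the 10 genes, 27 of them below the IDR threshold, and 11 of these 27 overlapped a peak in both replicate lists. The 11 are not all separate sites. The cki-1 peaks of rank 7212 and 10895 shared replicate peaks, and the cdk-2 peak of rank 18666 shared those of the cdk-2 IDR peak. A summit of the pooled list was present at 9 of 10 genes, against 59.3% of all protein-coding genes. Replicate 1 had a summit at 10 of 10, against 67.4% of all, and replicate 2 at 9 of 10, against 60.9% of all.

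Other genes of the cell cycle were counted from 4 lists with 83 matched genes, of which 40 (48.2%) had an IDR summit in the gene or the 5 kb upstream and 34 (41.0%) in the promoter window. For all protein-coding genes the shares were 32.9% and 14.7%. Of the DREAM and synMuv B genes, whose products act with LIN-35 in repression, 9 of 15 had a summit. Their strongest peaks were near the heterochromatin protein gene hpl-2 (rank 15, 3717 bp upstream), and at the DREAM subunit genes lin-54 (rank 39, 362 bp upstream), lin-9 (rank 140, 152 bp upstream) and lin-53 (rank 148, 231 bp upstream). These 4 peaks were stronger than that of efl-1, and hpl-2 had no promoter summit. In the same list efl-2, efl-3, lin-37, lin-52, lin-61 and let-418 had no IDR summit in the gene or the 5 kb upstream.

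Of the DNA replication genes 15 of 27 (55.6%) had a summit, 14 of them (51.9% of the 27) in the promoter window. For all protein-coding genes these shares were 32.9% and 14.7%. The strongest peaks in their windows were those of the sliding clamp gene pcn-1 (rank 110, 266 bp upstream), the origin recognition gene orc-2 (rank 135, 4973 bp upstream), the replication protein A gene rpa-2 (rank 397, 594 bp upstream) and the licensing gene cdc-6 (rank 454, 290 bp upstream). The orc-2 peak lies near the far end of its window, and orc-2 had no promoter summit. Of other regulators of the G1/S transition and SCF ligases, 6 of 14 (42.9%) had a summit. The strongest were at the F-box gene sel-10 (rank 1271, 169 bp upstream), the cullin gene cul-4 (rank 1418, 224 bp upstream), the F-box gene lin-23 (rank 1481, 943 bp upstream) and cdk-7 (rank 1712, 27 bp upstream). The cul-4 peak overlapped no peak in the replicate 2 list.

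Of the genes of mitosis and the APC/C, 10 of 27 (37.0%) had a summit, near the 32.9% of all protein-coding genes. The strongest peaks in their windows were those of the spindle checkpoint gene mdf-1 (rank 77, 2803 bp upstream), the securin gene ify-1 (rank 663, 193 bp upstream), the Aurora kinase gene air-1 (rank 774, 3387 bp upstream) and the checkpoint gene mdf-2 (rank 891, 49 bp upstream). Of regulators of L1 arrest and blast cell fate outside the cell cycle, 9 of 17 (52.9%) had a summit. The strongest were inside the FOXO gene daf-16 (rank 34, 4078 bp downstream of its start), upstream of the kinase gene akt-1 (rank 573, 2239 bp), and inside the heterochronic gene lin-28 (rank 890, 880 bp downstream) and the AMP kinase gene aak-2 (rank 902, 924 bp downstream). Differences between the lists were not tested.

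**Figure D4:**
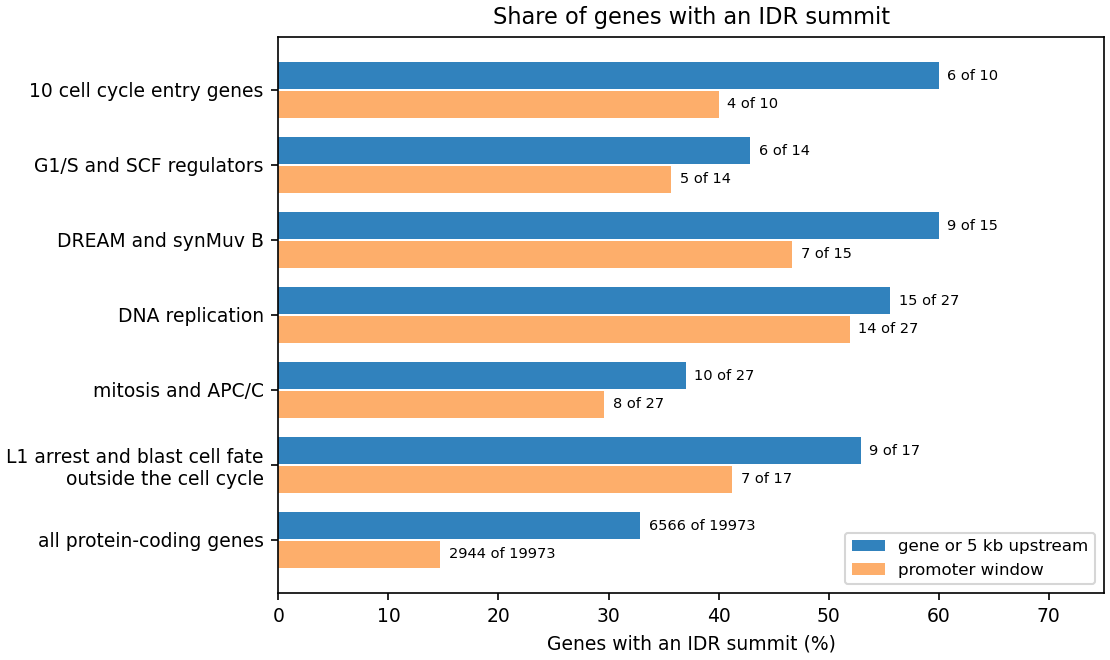
Share of genes (percent) with an IDR summit in the gene or the 5 kb upstream (blue) and in the promoter window (orange), for the 10 cell cycle entry genes, 5 related lists and all protein-coding genes, with the counts beside the bars. The 10 genes stand at 6 of 10 and 4 of 10, and each list lies above the bars of all protein-coding genes; the lists are small and no test was made.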

How the data were processed

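Chromatin immunoprecipitation with sequencing gave peak lists for 2 replicates of 1 group. The authors deposited 8 lists. The 4 on ce11 were used (IDR, pooled and each replicate); the 4 on ce10 were not used here. Neither the software behind alignment and peak calling nor its versions or the cutoff on IDR is given in the sources used here. Each list holds a deposited signal value of unstated scale and a q-value written by the authors as −log10, which reached 4.07 for 5914 IDR peaks. Read depth is not contained in the lists and is unknown. The IDR list equals the 6283 strongest pooled peaks. The deposited width was 396 bp for 55.1% of IDR peaks, including 4 of the 8 at these genes.

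Positions are 1-based on ce11, and a summit is the peak start plus the deposited offset. Genes came from the Ensembl 115 annotation of WBcel235, whose chromosome lengths hold all peaks. The 10 genes, 5 related lists, 8 words and windows were chosen with earlier results of these data known, so no test, set test or random placement was run. In the lists cdc-45 and dbf-4 were not matched, and pold-1 was matched through RefSeq. Named genes are the 10 genes, genes whose promoter window or body holds one of their IDR summits, and up to 4 genes a list with the strongest peaks. W05F2.4, sqv-8, T05A6.15 and C37A2.t1 were named after their positions were seen. The DREAM and synMuv B genes without an IDR summit are named as well. Peaks that shared 1 bp or more were matched between lists, and the strongest overlapping peak gave the replicate rank. Scripts ran in Python 3.11.15 with pandas 2.3.3, and the window counts were tested on simulated data with planted summits. Alternatives covered window length, gene start, summit assignment, peak strength and each replicate alone.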

Additional observations from a re-analysis of the deposited data

How the results depend on the processing

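Where each summit was given only to the nearest protein-coding start, the count of the 10 genes with an IDR summit fell to 2, against 6. The number of distinct summits fell to 2, against 8, and the share of all protein-coding genes was 18.5%, against 32.9%. The stronger 50% of IDR peaks left 2 of 10 genes with a promoter summit, against 4, and 5 distinct summits, and the share of all genes with a promoter summit was 8.6%, against 14.7%. With 1 kb upstream there were 5 distinct summits, and with all pooled peaks 35. With a single replicate the genes with a summit numbered 6 to 7 (all genes 32.3% to 33.3%), those with a promoter summit 2 to 4 (all genes 14.3% to 15.0%), the distinct summits 7 to 10 and the other cell cycle genes with a summit 41 to 46. The low promoter count came from replicate 2 alone, where cye-1 and cdk-4 dropped out. Over both replicates the peak that overlapped a gene's strongest IDR peak ranked 130 to 328 for efl-1, 500 to 546 for lin-35, 792 to 958 for cye-1, 1154 to 2489 for cdk-4, 2020 to 2533 for cdk-2 and 4343 to 5242 for fzr-1. The remaining alternatives gave 4 to 9 genes with a summit (all genes 19.6% to 59.3%), 3 to 6 with a promoter summit (all genes 11.5% to 19.5%), 7 to 10 distinct summits and 28 to 47 other cell cycle genes. Read depth is unknown, so whether a missing peak reflects few reads was not tested. No paired analysis was possible because the labels give 1 group.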

Other observations

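The genes given here come from the related lists and were chosen after their values were seen. The cyclin B gene cyb-1 and the origin recognition gene orc-5 had the same strongest IDR peak, of rank 1863, 466 bp upstream of cyb-1 and 162 bp upstream of orc-5, with rank 1720 in replicate 1 and 2280 in replicate 2. The insulin receptor gene daf-2 had its strongest peak inside the gene, at rank 4744 and 17908 bp downstream of the start. The mcm-7 peak, of rank 5537, overlapped a peak of rank 4647 in replicate 2 and none in replicate 1.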
